A study of Drosophila melanogaster with 6 samples.

Results

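The UDP-glucuronosyltransferases (UGTs) of Drosophila were followed gene by gene on expression arrays of METH-treated and control males. All genes whose current or older symbol begins with Ugt and carries a family number were taken, including CG5724, now named Ugt37A2. Of 11981 genes with a probe set of their own, a probe set being the group of short oligonucleotides that reports on a transcript, 35 met this rule, and they are all 35 such genes of the RefSeq gene table. Each was measured by 1 probe set. The genes were taken by their names, but this group was chosen with earlier results of these data known. The study itself put several of the genes (Ugt86Da, Ugt36Bc, Ugt36Ba, Ugt86Dd and CG5724) on its own list of METH-responsive genes, chosen on the same samples. Their direction here is therefore not independent evidence. All 6 samples held total RNA from the whole bodies of 20 virgin males of the w1118 strain, a laboratory strain with a mutated white gene. The males were 5 days old when they were placed for 24 h on the standard diet (control, 3 samples) or on the standard diet mixed with 0.6% (w/v) METH (3 samples), and the labels call both diets blue. The comparison asks which transcripts differ after a day of METH feeding. In RNA from whole flies, fewer cells of a type and less RNA per cell cannot be told apart.

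UGTs sit in the membrane of the endoplasmic reticulum and join a sugar from a UDP-sugar donor to small fat-soluble molecules, which makes them easier to dissolve and to excrete. Insect UGTs mostly use UDP-glucose as the donor, whereas those of mammals mostly use UDP-glucuronic acid. They are known from the detoxifying organs of the fly, the fat body, the midgut and the Malpighian tubules, and some from the antennae, and their numbers mark families that share protein sequence. The substrates of most single fly UGTs are not known. Among the genes below, Ugt35C1 (Ugt86Dd) has been tied to the nicotine resistance of fly larvae, and Ugt35B1 (Ugt86Db) was first described as an enzyme enriched in the antenna. The primers that the study designed for its qRT-PCR of Ugt35C1 and Ugt37A2 are shown because these were the pair of genes with the smallest adjusted p among the UGTs. They read 5′ to 3′ as follows, and both genes lie on chromosome arm 3R. The qRT-PCR values were not analysed here.
Ugt35C1 forward: gcctggaaagccagctaatgtg
Ugt35C1 reverse: ggcgcgctgcacattcat
Ugt37A2 forward: gaatgtccttccgacagcgct
Ugt37A2 reverse: tgcgtgggaggcgaagaa

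The median signal of an array was 61.0 to 70.3 on the control diet and 51.7 to 66.1 on METH, and arrays of the same diet had rank correlations from 0.968 to 0.975, those of different diets from 0.966 to 0.972. Values are given as a percentage of the signal of the actin control probe set of the same array, the study's reference, and differences as log2 values, METH minus control, with their standard error (SE). The actin reference was itself dimmer on METH, with signals of 1218, 922 and 984 on the control arrays and of 831, 868 and 700 on the METH arrays. With this reference the median difference of all genes was 0.25, against which single differences should be read, and over all probe sets the median was 0.241, or -0.135 with the signals as deposited. The label of whole male bodies was checked with tissue markers. Markers of the midgut, the Malpighian tubules, the fat body, the head, the muscle, the testis and the accessory gland were measured, while 4 of 5 female markers lay below the 40th percentile of signal. Of the tissues known for UGTs, the 7 Malpighian tubule markers summed to 597 to 743% of actin on control arrays and to 610 to 800% on METH arrays, and 0 of them passed limma's test. At an unadjusted p under 0.05, 1 was higher in limma, beside 11.5% of all genes, and 1 in the methods' t-test, beside 9.62%. Oatp58Dc was above the control arrays on every METH array (0.39, adjusted p = 0.424 in limma). Alp4 was below them on every METH array (-0.32, adjusted p = 0.464 in limma). The 11 midgut markers summed to 3060 to 4110% and 2910 to 3840%. By limma 3 were lower on METH (Jon25Bii, Jon25Bi and mag), beside 0.618% of all genes, and 0 higher, beside 1.14%. Before adjustment 4 were lower in limma, beside 2.45% of all genes, and 3 in the methods' t-test, beside 1.69%, with 0 higher in either. Mal-A1 was above the control arrays on every METH array without a call (0.42, adjusted p = 0.453 in limma). The 6 fat body markers summed to 402 to 498% and 450 to 533%. By limma 1 was lower (fit), beside 0.618% of all genes, and 0 higher, beside 1.14%. Before adjustment 1 was lower and 1 higher in either test. The shares of all genes were 2.45% lower and 11.5% higher in limma, and 1.69% and 9.62% in the methods' t-test. Apoltp, another fat body marker, was above the control arrays on every METH array without a call (0.69, adjusted p = 0.106 in limma). Lsp2 was below the control arrays on every METH array, also without a call (-0.51, adjusted p = 0.497 in limma). Fbp1 and Fbp2 were below the 40th percentile of signal. The part of tissue proportions in the results below was not tested.

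METH-treated flies had more transcript of 9 of the 35 UGT genes, by 2.27-fold (Ugt49C1) to 13.4-fold (Ugt37A2), at an adjusted p under 0.05 (limma, Benjamini-Hochberg over 18769 probe sets, two-sided). These are 25.7% of the UGT genes, beside 1.14% of all genes called higher by the same rule. They came from family 37 with 4 genes, family 49 with 2 genes, and families 35, 302 and 303 with 1 gene each. At the same threshold 0 UGT genes were lower, beside 0.618% of all genes. Before adjustment, p was under 0.05 in limma for 12 UGT genes above the control level, where 11.5% of all genes were, and for 1 below it, where 2.45% were. In the methods' t-test it was for 12 above, beside 9.62% of all genes, and 2 below, beside 1.69%. On 14 genes all METH arrays lay above all control arrays, which is 40% of the UGT genes beside 18.8% of all genes, and on 3 genes all METH arrays lay below, 8.57% beside 2.66%. The other 18 genes overlapped between diets. The median difference of the 35 genes was 0.28, close to the 0.25 of all genes. The differences form a range with no gap between called and other genes: Ugt302E1, Ugt302K1 and Ugt37E1 were not called at 1.03, 1.06 and 2.80, and the called genes began at 1.18. The 9 calls held in each of the 6 fits that left out an array, and under median, 75th percentile and quantile scaling. They fell to 4 (Ugt37A2, Ugt35C1, Ugt37D1 and Ugt302C1) when signals under the 20th percentile were raised to that level, to 2, Ugt37A2 and Ugt35C1, when the spread was not allowed to follow the signal level, and to 0 with the methods' t-test after Benjamini-Hochberg adjustment. Of the 9 genes 0 had an array below the raised level, so their differences stayed the same there and only SE and p changed.

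**Figure D1:**
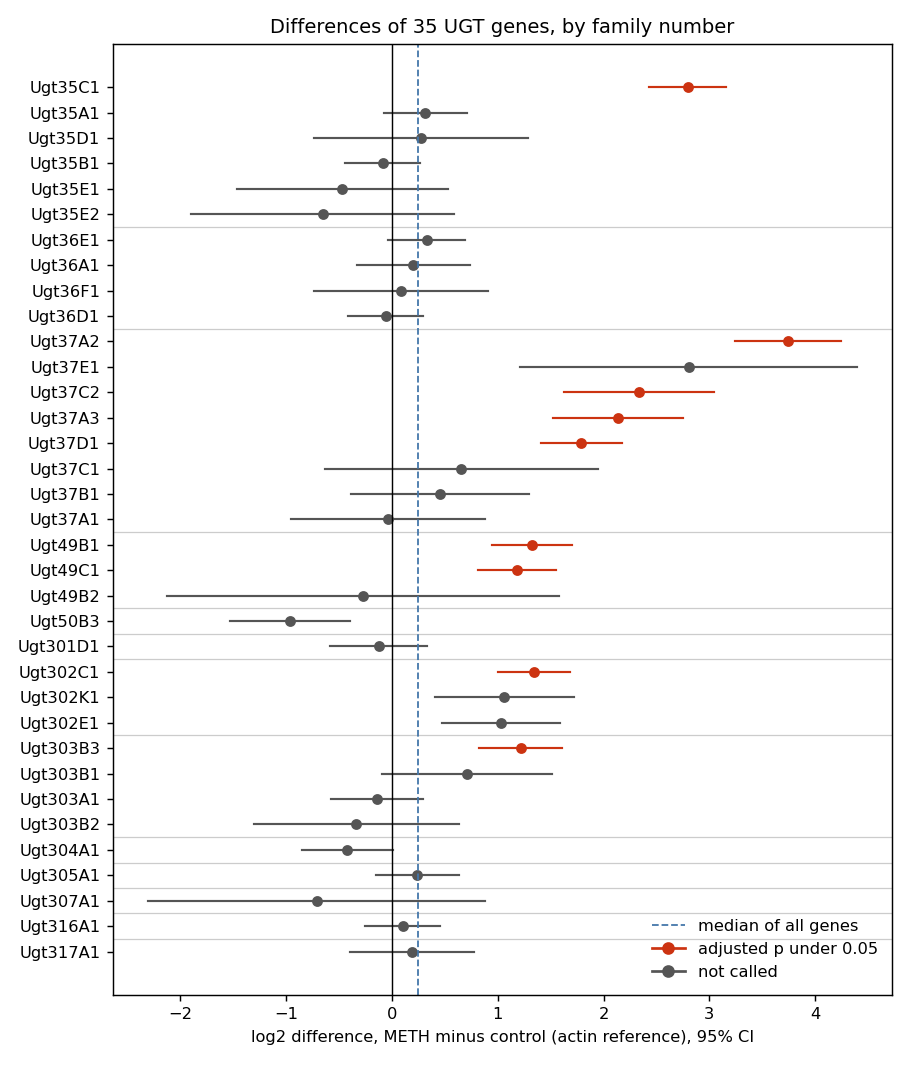
Difference of each of the 35 UGT genes between diets (x axis, log2, METH minus control with the actin reference; bars, 95% confidence intervals from limma), ordered by family number (y axis, lines between families). The 9 genes in red passed an adjusted p of 0.05 and range from 1.18 to 3.74, and the dashed line is the median of all genes, 0.25.

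Family 37 held the largest number of these genes. Of its 8 members 4 were called higher and 5 had all METH arrays above all control arrays, with a median difference of 1.96 and a range of -0.04 to 3.74. Ugt37A2 gave 33.3, 22.8 and 43.0% of the actin reference on control arrays and 359, 406 and 536% on METH arrays. The lowest METH value was thus far above the highest control value, and the difference was 3.74 (SE 0.23, adjusted p = 7.8e-07 in limma). It was the largest difference of the 35 genes. Its neighbour Ugt37A3 (CG5999) had a weaker signal, with 5.13, 2.60 and 5.17% on control arrays and 20.7, 15.0 and 18.8% on METH arrays. Both genes had their lowest control value on control array 2, and for both the diets did not overlap. The difference of Ugt37A3 was 2.14 (SE 0.29, adjusted p = 9.8e-04), which is 4.39-fold.

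The other called members of family 37 lie side by side on chromosome arm 2L, with Ugt37E1 (Ugt36Bb) between them. Ugt37D1 (Ugt36Bc) gave 61.0, 68.8 and 73.6% of actin on control arrays and 204, 218 and 287% on METH arrays. All METH values were above 200% and all control values below 75%, a difference of 1.79 (SE 0.18, adjusted p = 8.8e-05). Its probe set is of the kind that can also match a related transcript, so part of its signal may come from another gene. Ugt37C2 (Ugt36Ba) was far dimmer, at 1.77, 1.11 and 1.74% on control arrays and 8.11, 6.38 and 8.54% on METH arrays. Its lowest METH value was several times its highest control value, and the difference was 2.34 (SE 0.33, adjusted p = 0.0015). Ugt37E1 gave 0.0772, 0.208 and 0.190% on control arrays and 0.626, 1.03 and 1.61% on METH arrays. Its diets did not overlap and its difference was 2.80, but its SE was 0.74 and it was not called (adjusted p = 0.122). On 3 of the 6 arrays, the control arrays, its signal lay below the 20th percentile. With signals raised to that level its difference was 0.82. Of the other 3 members of the family, Ugt37B1, Ugt37C1 and Ugt37A1, the diets overlapped, with differences of 0.46, 0.66 and -0.04.

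**Figure D2:**
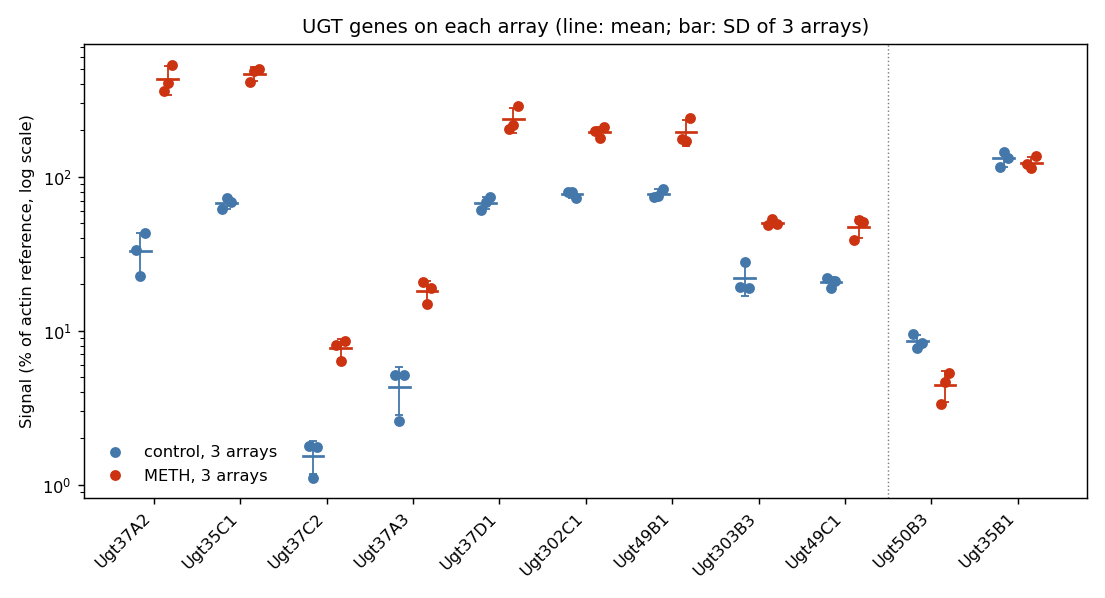
Signals of the 9 UGT genes called higher on METH, left of the dotted line, and of Ugt50B3 and Ugt35B1, which were called lower under another scaling, on each control (blue) and METH (red) array (y axis, percentage of the actin reference, log scale; line, mean; bar, SD of 3 arrays). For the 9 genes every METH point lies above every control point, from 359, 406 and 536% against 22.8 to 43.0% for Ugt37A2 to 38.8 to 52.1% against 19.0 to 22.1% for Ugt49C1.

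Of the 6 members of family 35 only Ugt35C1 was called. It rose from 61.6, 72.6 and 68.2% of actin on control arrays to 416, 486 and 503% on METH arrays. The control values lay within 1.18-fold of each other and the METH values within 1.21-fold, so the 6.94-fold difference (log2 2.79, SE 0.17, adjusted p = 7.2e-07) was well beyond the spread of either diet. It was called under every alternative but the methods' t-test after Benjamini-Hochberg adjustment. Ugt35B1 gave 116, 146 and 133% on control arrays and 121, 114 and 136% on METH arrays. The diets overlapped, and the difference was -0.09 with a 95% confidence interval from -0.44 to 0.27 (adjusted p = 0.818), although with the signals as deposited it was called lower (-0.46, adjusted p = 0.0358). The other 4 members ranged from -0.66 to 0.31. Among them only Ugt35E1 (Ugt86Dg) did not overlap, with all METH arrays below the control arrays and a difference of -0.47 (SE 0.46, adjusted p = 0.634).

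All 3 members of family 302 had METH arrays above control arrays throughout, with differences from 1.03 to 1.34. Ugt302C1 (Ugt86Da) gave 79.8, 79.6 and 72.7% of actin on control arrays and 198, 179 and 211% on METH arrays. The control arrays differed by no more than 1.1-fold, and the gene rose by 1.34 (SE 0.16, adjusted p = 3.2e-04). Ugt302E1 (Ugt86Dc) gave 9.93, 5.03 and 6.40% on control arrays and 12.6, 13.5 and 16.1% on METH arrays, a difference of 1.03 (SE 0.26, adjusted p = 0.0973). Control array 1 was its highest control value, and without that array the difference was 1.30 and was called (adjusted p = 0.0187). Ugt302K1 (Ugt86Di) gave 7.02, 3.57 and 5.50% on control arrays and 11.9, 7.58 and 13.8% on METH arrays. Its lowest METH value was just above its highest control value, and the difference of 1.06 (SE 0.30) did not pass (adjusted p = 0.171). Both genes passed when probe sets below the 40th percentile of signal were left out, which raised the count of UGT genes called higher to 11. That filter used the mean signal over all 6 arrays. Ugt37C2, one of the 11, passed it at 42.5 only through its METH arrays, as it lay at 35.3 on the control arrays.

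Of the 3 members of family 49, Ugt49B1 (CG4302) and Ugt49C1 (CG15661), neighbours on chromosome arm 2R, were higher on METH. Ugt49B1 gave 73.8, 75.1 and 83.7% of actin on control arrays and 176, 172 and 241% on METH arrays. METH array 3 stood above the other METH arrays, and all 3 were at least 2-fold above the highest control array (difference 1.32, SE 0.18, adjusted p = 9.6e-04). Ugt49C1 gave 22.1, 19.0 and 20.9% on control arrays and 38.8, 52.1 and 50.7% on METH arrays. Here METH array 1 was the lowest, and the difference was 1.18 (SE 0.17, adjusted p = 0.0020). It was the one call that the signals as deposited did not keep (0.81, adjusted p = 0.0506). The remaining member, Ugt49B2, was dim, with 4 of 6 arrays below the 20th percentile of signal, and its interval from -2.13 to 1.58 says little.

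In family 303 only Ugt303B3 (CG10170) of 4 members was called. It gave 19.1, 28.1 and 19.0% of actin on control arrays and 48.8, 52.9 and 49.7% on METH arrays. The METH arrays were close together and the control arrays less so, with array 2 the highest, and the difference was 1.22 (SE 0.18, adjusted p = 0.0026). Next to it, Ugt303B1 (CG16732) did not overlap between diets either, with a difference of 0.71 (SE 0.37, adjusted p = 0.448), while Ugt303B2 (-0.34) and Ugt303A1 (-0.14) overlapped. Family 36 had 4 members and 0 calls in either direction, with differences from -0.06 to 0.33, and for Ugt36E1 (CG17322) alone of them the METH arrays all lay above the control arrays (0.33, SE 0.17, adjusted p = 0.445). No difference between families was tested.

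Each of the other 7 families had 1 gene on the array, and none of these was called in the main comparison. Ugt50B3 (CG30438) stood lowest of the 35 genes, with 9.46, 7.77 and 8.31% of actin on control arrays and 3.34, 4.63 and 5.32% on METH arrays. Every METH array was below every control array, and the difference was -0.96 (SE 0.26, adjusted p = 0.142). Under the other 4 scalings it was -1.34 to -1.15 and was called lower each time (adjusted p = 0.0235 to 0.0395), and with the actin reference it was called lower once probe sets below the 40th percentile of signal were left out (adjusted p = 0.0335) or the replicate number was a block (adjusted p = 0.00891). Its probe set, too, can match related transcripts. Ugt304A1 (Ugt86Dj) gave -0.42 (SE 0.20, adjusted p = 0.437) with all METH arrays below the control arrays. In the remaining families, 301, 305, 307, 316 and 317, the diets overlapped and the differences were -0.13, 0.24, -0.71, 0.10 and 0.19.

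**Figure D3:**
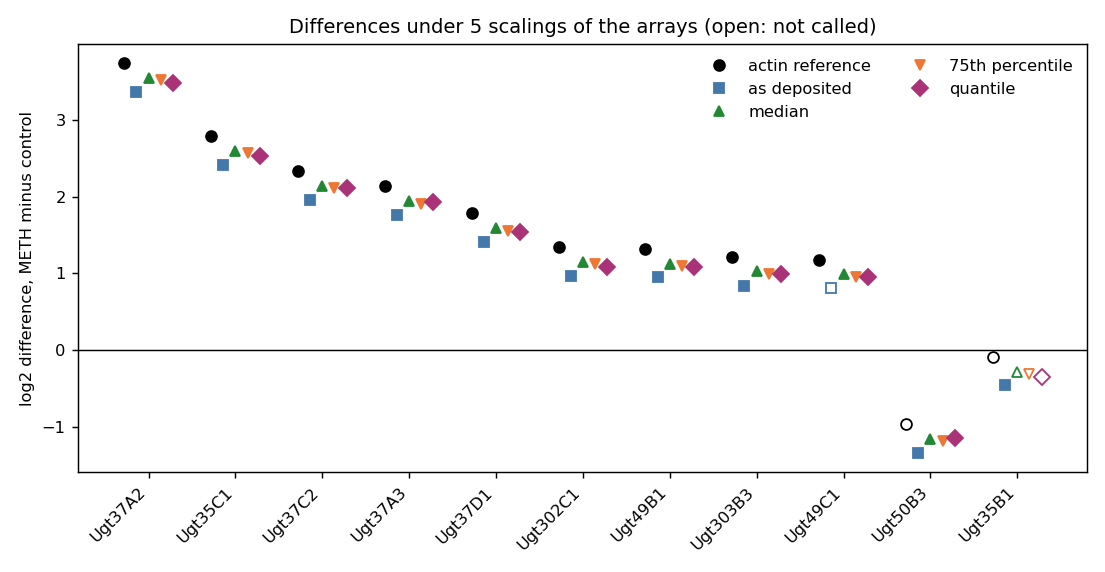
Differences (y axis, log2, METH minus control) of the 9 genes called higher and of Ugt50B3 and Ugt35B1 under 5 scalings of the arrays (symbols; open where limma did not call the gene). The actin reference gave the highest value for each gene; Ugt49C1 lost its call with the signals as deposited (0.81), while Ugt50B3 was called lower under the 4 other scalings (-1.34 to -1.15).

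Many UGT genes lie next to each other, and neighbours were compared in the order of the RefSeq gene table. A total of 23 of the 35 genes fell into 6 groups in which neighbouring UGT genes have at most 3 other genes between them. The pairs Ugt37A2 and Ugt37A3 and Ugt49B1 and Ugt49C1 were each called on both members, and in the group Ugt37C2, Ugt37E1 and Ugt37D1 all 3 genes were higher on every METH array. By contrast, 0 of the 3 genes of the group Ugt36F1, Ugt36D1 and Ugt36E1 on the same arm were called. The group Ugt303B3, Ugt303B1 and Ugt303B2 was mixed, with 1 gene called, 2 higher on every METH array and Ugt303B2 (-0.34) overlapping between diets. Over all genes, 18.8% had all METH arrays above all control arrays and 2.66% had all below. The largest group, on 3R, runs over 10 genes formerly numbered within Ugt86D. Its 4 genes at one end, Ugt35C1, Ugt302K1, Ugt302E1 and Ugt302C1, were each higher on every METH array, with differences of 2.79, 1.06, 1.03 and 1.34. The 6 genes after them, Ugt35E1, Ugt35E2, Ugt35B1, Ugt35A1, Ugt304A1 and Ugt303A1, gave -0.47, -0.66, -0.09, 0.31, -0.42 and -0.14, and for 2 of them all METH arrays were below the control arrays. Position and family overlap here, since all 3 genes of family 302 lie at that end, but Ugt35C1 and the other family 35 genes of the group were on either side of this break. The break was seen in the values and was not tested.

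**Figure D4:**
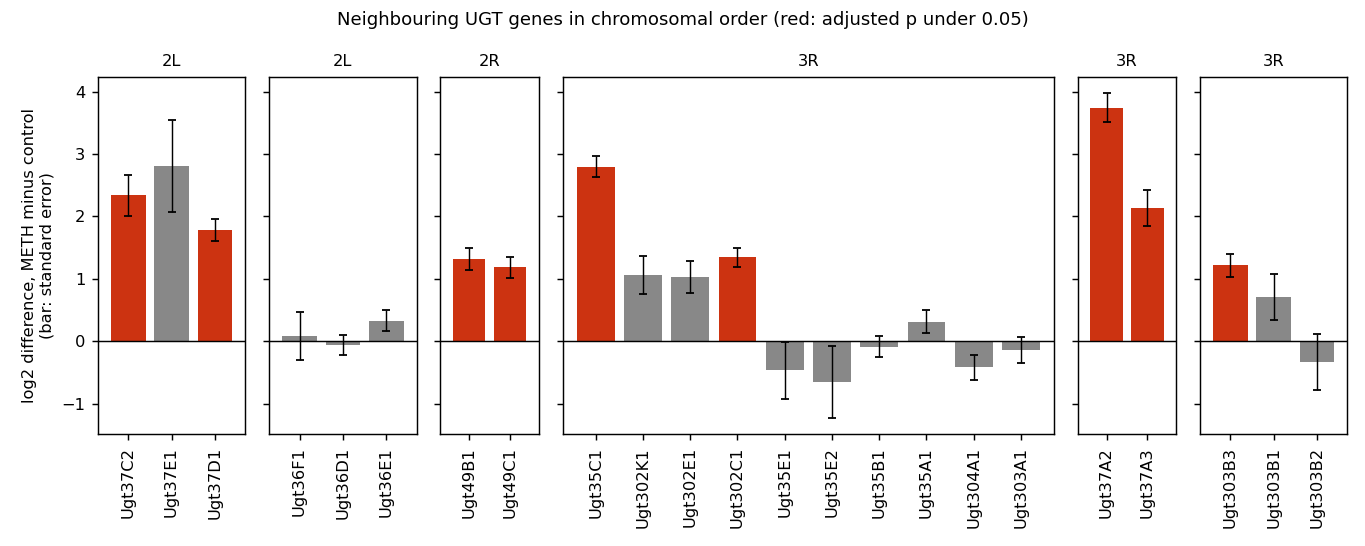
Differences (y axis, log2, METH minus control; bars, standard error) of the 23 UGT genes that have a UGT neighbour, in 6 panels by group and in chromosomal order (chromosome arm above each panel; red, adjusted p under 0.05). In the group of 10 the first 4 genes range from 1.03 to 2.79 and the next 6 from -0.66 to 0.31.

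The level before treatment was read from the control arrays alone, since the METH arrays raise the mean of a gene that is higher on METH. Among all probe sets, 12 of the 35 genes lay below the 40th percentile of control signal, and 1 of them, Ugt37C2 at 35.3, was called. Of the 21 genes from the 40th to the 90th percentile 8 were called, from Ugt37A3 at 45.1 to Ugt49B1 and Ugt302C1 at 88.4. The 2 genes above the 90th percentile, Ugt36D1 and Ugt35B1, were not called. Within a diet the highest array exceeded the lowest by 1.08- to 1.99-fold for the called genes, a small spread making a call easier. The ratio was 1.07- to 2.39-fold for genes not called at or above the 40th percentile of mean signal over all 6 arrays. Below that percentile it reached 10.4-fold. Of the 26 genes not called, 13 had a 95% confidence interval wholly between -1 and 1, and 18 had an upper bound below 1. The other 8 had an upper bound at or above 1, a 2-fold higher level on METH. Among these 8, the interval of Ugt37E1, from 1.21 to 4.39, lay wholly above 1. Its control signals were all under the 20th percentile, however. With signals raised to that level its difference was 0.82 (adjusted p = 0.491 in limma), so the size of the difference is poorly known. A p that misses the threshold does not show that the 26 genes were alike on both diets. The median difference of the 26 genes was 0.09.

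**Figure D5:**
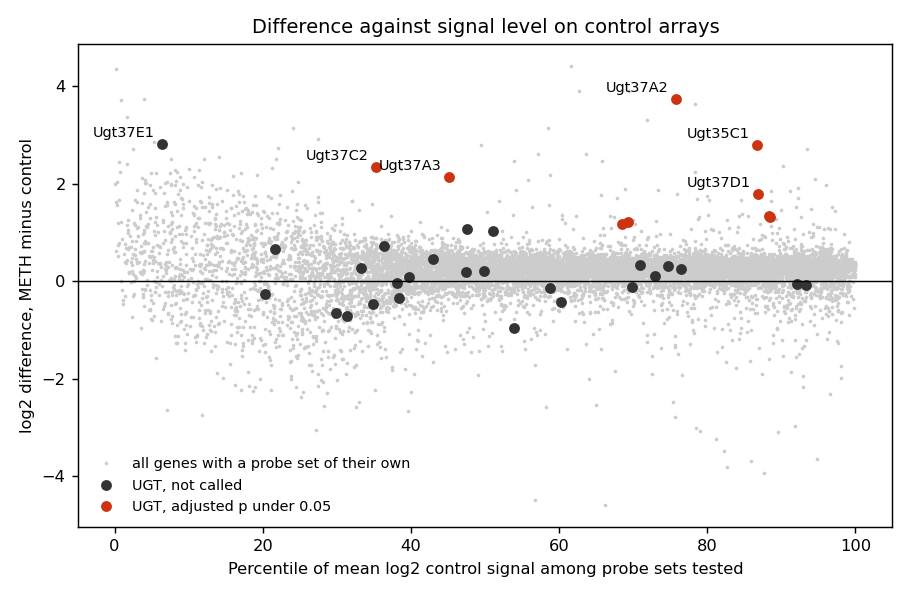
Difference between diets (y axis, log2, METH minus control) against the percentile of mean log2 signal on the control arrays (x axis) for all 11981 genes with a probe set of their own (grey), UGT genes not called (black) and UGT genes with an adjusted p under 0.05 (red). The 9 called genes range from the 35.3 (Ugt37C2) to the 88.4 percentile of control signal, and Ugt37E1, with a difference of 2.80, lies at 6.44 among dim genes where differences scatter widely.

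The sugar that UGTs transfer comes from glucose through glucose phosphates and UDP-glucose, which UDP-glucose dehydrogenase (sgl) oxidizes to UDP-glucuronic acid. A list of 12 genes around this supply was read, including the glycogen genes Glys, Glyp and AGBE, none of which makes a UDP-sugar. Of these 12 genes 11 were measured, with differences from -0.36 (AGBE) to 0.69 and a median of 0.26, again close to that of all genes. By limma 0 were called, and before adjustment 4 genes above the control level had a p under 0.05, where 11.5% of all genes did, and 0 below it, where 2.45% did. The methods' t-test gave 4 and 0 as well, beside 9.62% and 1.69%. Hex-C, a hexokinase, gave 180, 184 and 192% of actin on control arrays and 249, 291 and 370% on METH arrays, and Galk, galactokinase, gave 235, 292 and 281% and 358, 419 and 506%. Neither overlapped between diets, with differences of 0.69 (SE 0.19, adjusted p = 0.142) and 0.66 (SE 0.20, adjusted p = 0.215). The donor enzymes themselves overlapped, with -0.34 for sgl (adjusted p = 0.451) and 0.16 for UGP, which makes UDP-glucose (adjusted p = 0.808).

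Detoxification genes of the fly are known to be controlled by CncC, a product of cnc, which acts with maf-S and is held back by Keap1, and by the nuclear receptor Hr96. Of these 4 genes only Keap1 was called, beside 1.14% of all genes called higher. It gave 5.59, 4.75 and 5.70% of actin on control arrays and 10.6, 10.7 and 12.7% on METH arrays (difference 1.08, SE 0.22, adjusted p = 0.029). The diets were well apart, but the call was lost under each of the other 4 scalings (0.71 to 0.89, adjusted p = 0.0691 to 0.198) and whenever any array was left out (adjusted p = 0.0746 to 0.105). For maf-S the METH arrays lay above the control arrays (0.42, adjusted p = 0.363), and cnc (0.33) and Hr96 (0.05) overlapped between diets. At an unadjusted p under 0.05, 2 genes, Keap1 and maf-S, were higher in limma, beside 11.5% of all genes. The same 2 were higher in the methods' t-test, beside 9.62%. In either test 0 were lower, beside 2.45% in limma and 1.69% in the methods' t-test. The probe sets of Keap1 and cnc can also match related transcripts.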

How the data were processed

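RNA was measured on Affymetrix Drosophila Genome 2.0 arrays, 1 per sample. The authors extracted the RNA with Trizol, hybridized biotinylated cRNA and quantified the images with GCOS 1.4, named in the submitters' processing notes, and deposited them as signal intensities on a linear scale, with 1 value for each probe set. These had not been logged or divided by actin, and a common scaling of the arrays is not given in the sources used here.

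From each log2 signal that of AFFX-Dros-ACTIN_M_r on the same array was subtracted, as the study's methods have it. After the 183 AFFX probe sets were left out, 18769 were fitted with R 4.3.3 and limma 3.58.1 (lmFit, eBayes with trend) on all 6 arrays, and p values were adjusted by Benjamini-Hochberg over all of them. Limma took the place of the study's significance analysis of microarrays, which was not run, and was tested on simulated data. The platform annotation pairs 13646 probe sets with 1 gene, 402 with several and 4721 with none, and 13543 were named through a gene identifier in the RefSeq table (Release 6 plus ISO1 MT), which also gave gene order. A gene is represented by its brightest probe set. Plots were made with Python 3.11.15 and matplotlib 3.10.9.

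The members and lists were chosen with earlier results of these data known. Each UGT gene called with actin or another scaling, and the 5 of highest mean signal, are given on every array. Other members are named where diets do not overlap, of the other lists up to 4 genes each, and further members where family or gene order called for it, after their values were seen. Other scalings, filters, floors, blocks and left-out arrays were tried as alternatives. Replicates are separate groups of flies. The number of arrays limits the precision. Promoter and protein sequences, qRT-PCR, survival, metabolites and proteins were not analysed here.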

Additional observations from a re-analysis of the deposited data

How the results depend on the processing

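The 9 UGT genes called higher were 8 to 11 under the other scalings, without dim probe sets and without probe sets shared between genes. Leaving out the shared probe sets removed that of Ugt37D1 itself, so its call was not tested there. Averaging all probe sets of a gene kept the 9 but could not test them, as each of the 35 UGT genes has 1 probe set. Their differences stayed the same there and only SE and p changed. The UGT genes called higher were 9 to 10 when each array was left out in turn. They were 4 with a floor at the 20th percentile (5 calls lost, adjusted p = 0.059 to 0.133), 2 without the trend (7 calls lost, 0.0559 to 0.175), and 9 with the methods' t-test (thresholds 0.008 for p and 1.5-fold) but 0 of these after Benjamini-Hochberg (12 at an unadjusted p under 0.05). UGT genes called lower, 0 with actin, were 2 with the signals as deposited (Ugt50B3 and Ugt35B1) and 1, Ugt50B3, with median, 75th percentile or quantile scaling, without dim probe sets and with the replicate block. Same-numbered arrays of both diets deviated together only weakly (correlations 0.0221, 0.0414 and 0.0639), so the numbers were not taken as pairs. With the replicate number as a block 12 UGT genes were higher, adding Ugt302E1, Ugt302K1 and Ugt37E1, and 2 sugar donor genes, Hex-C and Galk. On the sugar donor list 1 gene, the glycogen gene AGBE, was lower with the signals as deposited and with quantile scaling. The alternatives gave 581 values of a UGT gene, not counting other thresholds or the methods' t-test after Benjamini-Hochberg, which ended all 9 calls. Of these values 555 kept their side of the threshold, 13 gained and 13 lost a call, and 26 changed sign, none of them called. The 581 include the averaging of probe sets, under which no UGT difference could change. Of the 12 UGT genes below the 40th percentile of control signal only Ugt37C2 was called with actin, and 3 arrays per diet resolve most differences of dim genes poorly.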

Other observations

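Other enzymes also move glucose or glucuronic acid onto lipids and glycans, carry the nucleotide sugars into the secretory pathway or, like the glucuronidases betaGlu and CG15117, take glucuronic acid off again. Of 11 such genes 10 were measured, among them Uggt, which adds glucose to misfolded glycoproteins, and Ugalt, a UDP-galactose transporter, both of which have Ugt as an older symbol but no family number and were not counted with the UGTs. Their differences ran from -0.33 to 0.24 with a median of 0.09. By limma 0 were called and 0 had an unadjusted p under 0.05, and by the methods' t-test 1 gene, GlcT, was lower at an unadjusted p under 0.05 (log2 difference -0.23). Uggt gave 17.5, 26.7 and 16.8% of actin on control arrays and 20.9, 26.1 and 18.6% on METH arrays, and Ugalt gave 27.8, 32.9 and 32.8% and 20.1, 27.0 and 32.1%. For both the diets overlapped.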
